A study of Homo sapiens with 8 samples.

Results

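The genes described are 10 that encode AP-1 transcription factors or other proteins made early after a stimulus: JUN, JUNB, JUND, FOS, FOSB, FOSL1, FOSL2, EGR1, IER3 and IER5. They were picked by symbol, and all 10 were found among the 22808 gene symbols of the count table. The cells were RD18, a human fusion-negative rhabdomyosarcoma line, that is, a muscle-lineage tumour line without a PAX fusion gene. One group was transfected with the microRNAs miR-449a and miR-340-5p together, and the other received the transfection reagent lipofectamine as vehicle. RNA of both was taken at 60 h, with 4 libraries in each group. The labels name no control RNA for the vehicle cells, so an effect of the microRNA sequences and one of transfecting any small RNA cannot be told apart. Libraries are called miR and vehicle below. Whether the replicates were separate cultures is not stated, so the p-values rest on a spread between samples that may be technical only.

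AP-1 is a dimer of basic leucine zipper (bZIP) proteins, in which a JUN family protein pairs with itself, with a FOS family protein or with certain ATF and MAF proteins. FOS proteins need a JUN partner to bind DNA. The mRNAs of FOS, FOSB, JUN, JUNB and EGR1 are classical immediate early transcripts: they appear within minutes of growth factor, stress or kinase signals without new protein synthesis and decay quickly, whereas JUND is made more steadily. Serum response factor with ternary complex factors such as ELK1, kinases of the ERK, JNK and p38 families, and AU-rich elements in the mRNA that speed its decay are known regulators of these genes. The data hold a single time, 60 h after transfection, so the time course of induction was not measured.

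The 2 microRNAs are shown first, because their seeds set which words to look for in the members. Each is written 5′ to 3′ as RefSeq gives it (GRCh38.p14), with the seed, bases 2 to 8, in capitals. Both genes lie on the minus strand of chromosome 5, with mature miR-449a at 55170586 to 55170607 and mature miR-340-5p at 180015361 to 180015382. The seeds differ, so the pair is not one seed family.
miR-449a: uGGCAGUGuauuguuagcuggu
miR-340-5p: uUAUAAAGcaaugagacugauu

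A 3′ UTR can pair with these seeds through CACTGCC, the word of miR-449a, or CTTTATA, the word of miR-340-5p. In the longest 3′ UTR that GENCODE 29 (GRCh38) gives each gene, 5 of the 10 members held a word and JUN, JUNB, JUND, EGR1 and IER3 held neither. FOS, FOSB and IER5 each held 1 miR-449a word, FOSL1 held 2, and FOSL2 held 1 miR-340-5p word. Over the 13661 genes of the table with such a UTR, 17.5% held the miR-449a word, 18.2% the miR-340-5p word and 31.7% at least 1 of them. The words are shown in capitals, within 10 bases on each side, 5′ to 3′ on the gene's own strand. The FOS word is at chr14:75281464-75281470 and the FOSB word at chr19:45473163-45473169. FOSL1 holds its words at chr11:65892551-65892557 and chr11:65892450-65892456, on the minus strand. The FOSL2 word is at chr2:28415772-28415778 and the IER5 word at chr1:181091599-181091605. All but that of FOS are followed by an A, the form with the longest seed match. A word is a description of the letters and not a measured site.
FOS, miR-449a: ccacaagtgcCACTGCCcgagctggtg
FOSB, miR-449a: gccactgcgcCACTGCCatcggacagg
FOSL1, miR-449a, nearer the stop codon: ccttccagatCACTGCCacactctcca
FOSL1, miR-449a, farther from it: tcaccagcccCACTGCCagcagcagca
FOSL2, miR-340-5p: gaggacatctCTTTATAaaaggcccct
IER5, miR-449a: ttactaaaatCACTGCCattaagagag

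Totals ran from 2842165 to 5569342 counts in the miR libraries and from 2567737 to 4650213 in the vehicle libraries. Mitochondrial ribosomal RNA took 14.4% to 16.1% of counts in miR libraries and 12.2% to 16.7% in vehicle libraries, the lowest share being that of vehicle replicate 4. Of 5 muscle-lineage markers, 4 were measured above the count minimum: MYOD1, DES and CHRNA1 averaged 108, 67.7 and 624 CPM in miR libraries and 204, 108 and 814 CPM in vehicle libraries, where CPM is the count scaled to the size of its library. MYOG was at 0.646 CPM in miR libraries and 10.4 CPM in vehicle libraries. The remaining marker, MYF6, had 3 counts over all 8 libraries. Leukocyte markers summed to 1.93 to 2.73 CPM in miR libraries and 1.26 to 2.76 CPM in vehicle libraries, endothelial markers to at most 1.29 and 0.674 CPM, and epithelial markers to 1.02 to 2.57 CPM and at most 0.418 CPM. These sums cover only markers with a row in the count table: 3 of 4 leukocyte, 2 of 4 endothelial and 2 of 3 epithelial markers.

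JUN, JUNB, FOSL2, IER3 and IER5 rose in the miR-transfected cells, JUND fell, and FOS, FOSL1 and EGR1 did not pass the test. FOSB was too low to be tested. Of the 9 tested members, 5 were called higher (background 33.4% of the 12366 tested genes) and 1 lower (background 34.0%), by edgeR's quasi-likelihood test with Benjamini-Hochberg adjustment over all tested genes and a threshold of 0.05. The background is high, since 67.3% of all tested genes were called in one direction or the other, so a share of 6 of 9 is close to it. Libraries of the 2 groups did not overlap for 5 of the members (background 58.9%), and all 5 were higher in miR libraries (background 29.2% higher and 29.7% lower). The median log2 fold change of the 9 was 0.63, beside -0.00067 over all tested genes. The members were chosen with earlier results of these data known, so these counts describe the set and do not test it.

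**Figure D1:**
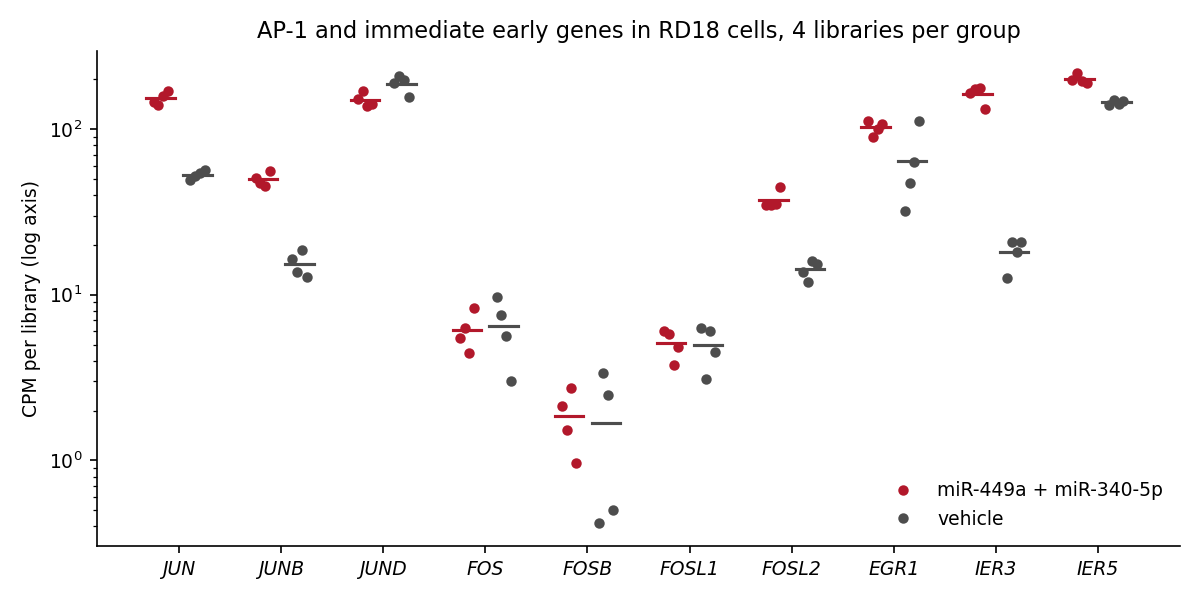
CPM of each of the 10 genes (log axis) in every library, with the miR-449a and miR-340-5p group left of the vehicle group, 1 point per library and a bar at the mean of 4. Points of the 2 groups are apart for JUN, JUNB, FOSL2, IER3 and IER5, and the EGR1 vehicle points spread from 32.2 to 112 CPM.

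Among the JUN family, JUN is a direct substrate of the JNK kinases. It lies on chromosome 1 (58780788 to 58784327, GRCh38, minus strand) and has a single exon. JUN measured 145, 139.7, 158 and 169.6 CPM in the miR libraries, against 48.9, 52.0, 54.1 and 56.8 CPM in the vehicle libraries. Every miR library was above every vehicle library, by more than the whole range within either group. The fold change was 2.85, or 1.51 on the log2 scale (SE 0.08, adjusted p = 1.04e-23). In bulk RNA, more cells with the transcript and more transcript per cell cannot be told apart, here and for the genes below.

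JUNB, a JUN relative that is a weaker activator with FOS-type partners and often opposes JUN, is also a single-exon gene, on chromosome 19 (12791496 to 12793315). It had 50.9, 47.3, 45.4 and 55.7 CPM in miR libraries, against 16.3, 13.7, 18.6 and 12.8 CPM in vehicle libraries. The groups did not overlap, and the log2 fold change was 1.69 (SE 0.13, adjusted p = 3.34e-17), 3.23-fold. Exons annotated for HOOK2 overlap JUNB on the opposite strand. HOOK2 had 210 counts over all 8 libraries, against 1095 for JUNB, and the sources used here do not give the strand setting of the counting, so some reads cannot be assigned with certainty.

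JUND, the steadily made JUN protein, moved the other way. The gene is on chromosome 19 (18279760 to 18281622, minus strand). It measured 152, 169.7, 138 and 142 CPM in miR libraries, against 189, 208, 198 and 155 CPM in vehicle libraries. The groups overlapped in 1 library: vehicle replicate 4 lay below the highest miR library. The fall of 1.24-fold passed the test (log2 fold change -0.31, SE 0.08, adjusted p = 0.000343). With library size as the only scaling the median of all tested genes shifted by 0.14 on the log2 scale, and JUND then measured -0.17 (adjusted p = 0.0469), the value nearest to 0 among its 17 alternatives.

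In the FOS family 1 member rose and the other tested members did not pass. FOSL2, which encodes FRA2, a FOS relative without the strong activation region of FOS, lies on chromosome 2 (28392448 to 28417312). It had 34.8, 35.0, 35.1 and 44.7 CPM in miR libraries, against 13.8, 11.9, 15.9 and 15.3 CPM in vehicle libraries. The groups did not overlap, and miR replicate 4 stood above the other miR libraries, which lay close together. The fold was 2.58 (log2 fold change 1.37, SE 0.14, adjusted p = 1.32e-12). FOSL2 was the member with a miR-340-5p word in its 3′ UTR.

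FOS, the founding partner of JUN, lies on chromosome 14 (75278774 to 75282230). It was low in both groups, with 31, 37, 13 and 26 counts in miR libraries, against 23, 29, 25 and 12 counts in vehicle libraries. Scaled, these were 5.50, 6.31, 4.48 and 8.37 CPM in miR libraries and 9.62, 7.51, 5.61 and 3.01 CPM in vehicle libraries. The vehicle range enclosed all miR libraries. The log2 fold change was -0.01 (SE 0.29, 95% interval -0.58 to 0.57, adjusted p = 0.981), so changes of up to about that size in either direction could not be told from 0 at this depth, and the sign of the estimate changed under several settings.

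FOSL1, which encodes FRA1, lies on chromosome 11 (65892049 to 65900573, minus strand) and is known as a late, ERK-dependent FOS relative in many tumour cells. It had 6.04, 5.80, 3.79 and 4.83 CPM in miR libraries, against 6.28, 3.11, 6.06 and 4.52 CPM in vehicle libraries. Both groups covered nearly the same range, and the log2 fold change was 0.10 (SE 0.29, 95% interval -0.49 to 0.69, adjusted p = 0.775). A processed pseudogene, FOSL1P1 on chromosome 4, carries a copy of its sequence, so these values are uncertain.

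FOSB, a FOS relative known for lasting forms in the brain, is on chromosome 19 (45467995 to 45475179). It had 12, 9, 8 and 3 counts in miR libraries, against 1, 13, 11 and 2 counts in vehicle libraries, which is under the count minimum of the test. The means were 1.85 ± 0.770 CPM in miR libraries and 1.69 ± 1.47 CPM in vehicle libraries (SD, n = 4 each). A two-sided exact permutation test of the difference gave p = 0.857, where 4 against 4 allows 0.0286 at the least. The vehicle libraries span 1 to 13 counts. With no filter on low counts, edgeR gave a log2 fold change of 0.04 (adjusted p = 0.955).

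**Figure D2:**
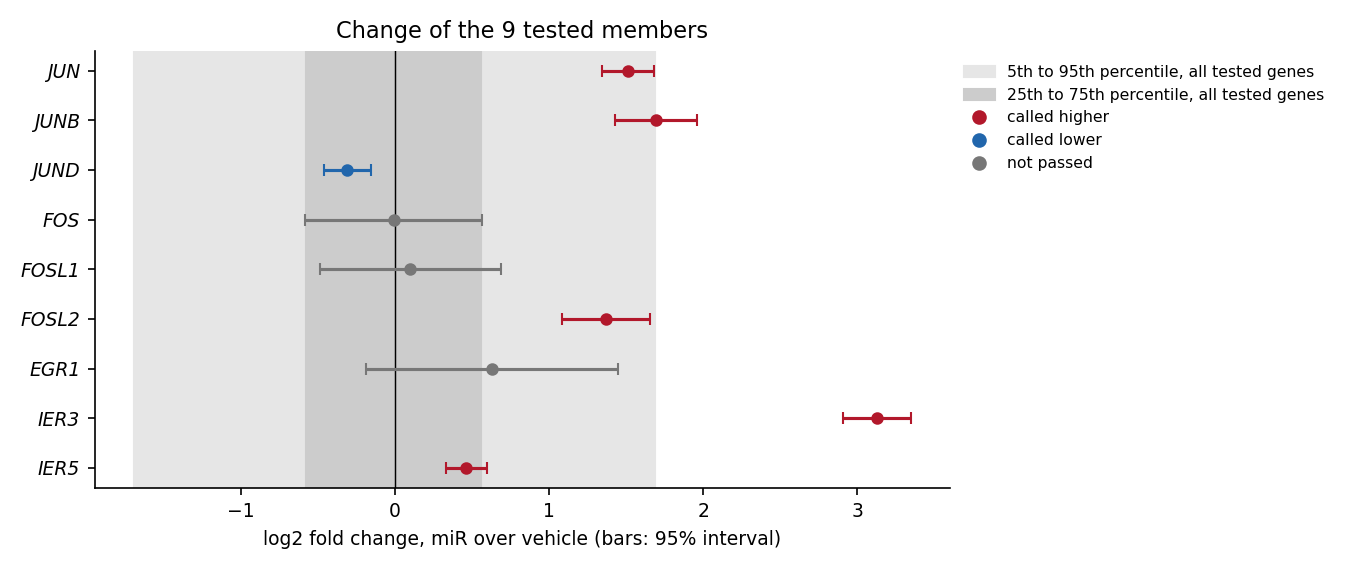
Log2 fold change, miR over vehicle, of the 9 tested members as points with 95% intervals, on the spread of all 12366 tested genes (shaded, 5th to 95th and 25th to 75th percentiles). IER3 at 3.13 lies beyond the 95th percentile of 1.69, and the intervals of FOS, FOSL1 and EGR1 include 0.

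EGR1, a zinc finger transcription factor that is a standard readout of ERK and SRF activity, lies on chromosome 5 (138465490 to 138469315). It measured 111, 90.1, 100.2 and 107 CPM in miR libraries, against 32.2, 47.4, 63.6 and 112 CPM in vehicle libraries. The miR libraries sat close together, with a coefficient of variation of 9.09%, whereas the vehicle libraries spread 3.49-fold, with a coefficient of variation of 54.4%. Vehicle replicate 4 was above every miR library, and the other 3 vehicle libraries were below every miR library. The log2 fold change was 0.63 (SE 0.34, 95% interval -0.19 to 1.45) and did not pass (adjusted p = 0.145). Without vehicle replicate 4, the vehicle library above every miR library, it was 1.05 and passed (adjusted p = 2.89e-06). With limma-voom it was 0.74 and passed (adjusted p = 6.16e-05). These were the only 2 of 17 alternatives in which EGR1 passed.

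The vehicle spread of EGR1 was larger than counting allows. The lowest vehicle library had 77 counts, with a 95% counting interval of 25.4 to 40.3 CPM, and the highest had 447 counts, with an interval of 102 to 123 CPM. The fitted biological coefficient of variation of EGR1 was 0.354, and 7 of the 12366 tested genes had a larger one. Of 15 other immediate early genes averaging at least 5 CPM, the ratio of highest to lowest vehicle library had a median of 1.68 and reached 3.41 for KLF2, a low gene at 4.32 CPM in vehicle. Vehicle replicate 4 was the highest vehicle library for 3 of the 15 (CYR61, CTGF and GADD45B) and the lowest for 6. It also had the lowest share of mitochondrial ribosomal RNA, at 12.2%, whose part in the result was not tested.

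FOS ran opposite to EGR1 across the vehicle libraries. The library with the most EGR1, vehicle replicate 4, had the least FOS, at 3.01 CPM (95% counting interval 1.56 to 5.27), and vehicle replicate 1, with the least EGR1, had the most FOS, at 9.62 CPM (6.10 to 14.4). The intervals of these libraries do not overlap. With 4 libraries and 12 to 29 FOS counts in each, this is a description of these libraries.

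**Figure D3:**
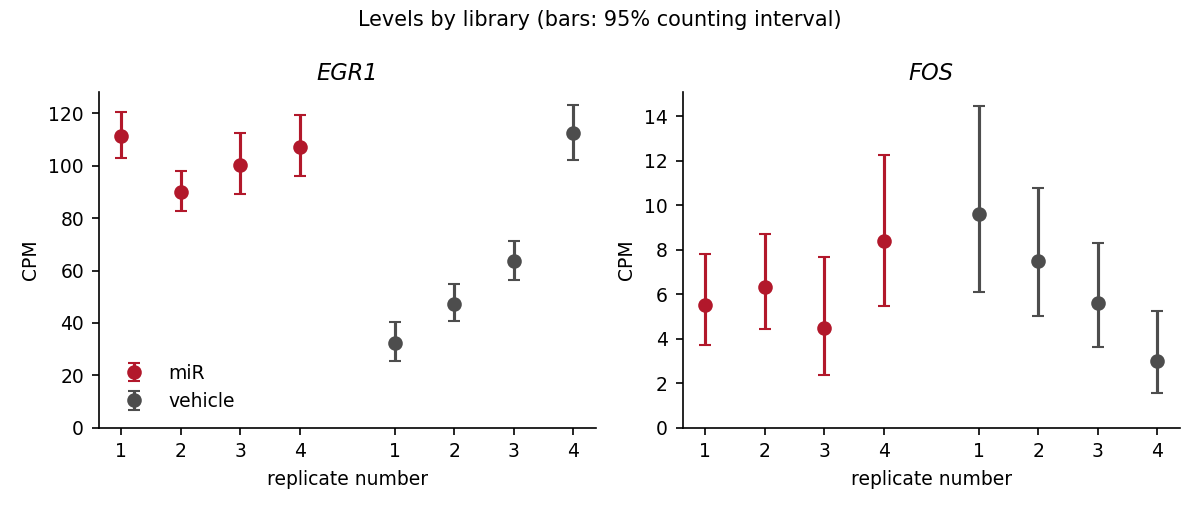
CPM of EGR1 and FOS in each library, miR replicates 1 to 4 left of vehicle replicates 1 to 4, with 95% counting intervals. Vehicle replicate 4 is highest for EGR1, at 112 CPM, and lowest for FOS, at 3.01 CPM, whereas the miR libraries of EGR1 lie between 90.1 and 111 CPM.

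Of the 2 IER genes, IER3 had the largest change of the set. IER3, also called IEX-1, is an early gene of ERK, NF-kB and p53 signalling whose protein affects survival under stress. It lies on chromosome 6 (30743199 to 30744554, minus strand). It had 165, 175, 176 and 132 CPM in miR libraries, against 12.6, 20.7, 18.2 and 20.8 CPM in vehicle libraries. Every miR library was several times higher than any vehicle library. The fold was 8.74 (log2 fold change 3.13, SE 0.11, adjusted p = 7.13e-32), which lies at the 99.0th percentile of all tested genes. An antisense gene, IER3-AS1, overlaps it on the other strand and was not analysed here.

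IER5, a nuclear protein known to act with heat shock factor HSF1, lies on chromosome 1 (181088712 to 181092899) as a single exon. It measured 198, 217, 194 and 188 CPM in miR libraries, against 140.1, 149.7, 142 and 147 CPM in vehicle libraries. The groups did not overlap, and the vehicle libraries lay close together, with a coefficient of variation of 2.98%. The log2 fold change was 0.46 (SE 0.07, adjusted p = 1.72e-08), 1.38-fold. Its 3′ UTR is the one shown above with a miR-449a word.

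None of the 3 tested members with a miR-449a word was called lower: IER5 rose, and FOS and FOSL1 did not pass. Among all 1880 tested genes with that word and a GENCODE 3′ UTR, 40.9% were called lower and 28.2% higher, with a median log2 fold change of -0.13. FOSL2, the tested member with a miR-340-5p word, rose; among the 2098 tested genes with that word 34.1% were called lower and 35.3% higher. The member that fell, JUND, held neither word, as did 7011 tested genes, of which 32.0% were called lower. Genes with a word had longer 3′ UTRs, with medians of 2596 bases for miR-449a and 3100 bases for miR-340-5p against 1029 bases for genes with neither.

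Levels of different genes were compared per length, as CPM per kb of the principal transcript. In miR libraries the order was IER3 at 130.1 ± 16.3, JUND at 80.7 ± 7.60, IER5 at 47.6 ± 2.98, JUN at 43.2 ± 3.79, EGR1 at 32.6 ± 2.96, JUNB at 27.4 ± 2.49, FOSL2 at 5.58 ± 0.729, FOSL1 at 3.06 ± 0.615, FOS at 2.86 ± 0.765 and FOSB at 0.489 ± 0.204 CPM per kb (SD, n = 4). Neighbours in this order whose libraries overlapped were IER5 with JUN, EGR1 with JUNB, and FOSL1 with FOS. In vehicle libraries JUND stood first at 101 ± 12.3 CPM per kb, above IER5 at 34.6 ± 1.03, EGR1 at 20.4 ± 11.1, JUN at 15.0 ± 0.934, IER3 at 14.5 ± 3.12 and JUNB at 8.45 ± 1.45. These 5 genes below JUND formed a chain in which each overlapped the next. FOSL1 and FOS at 2.99 ± 0.887 and 2.98 ± 1.30, FOSL2 at 2.12 ± 0.268 and FOSB at 0.447 ± 0.388 CPM per kb followed. Of these, FOSL1 overlapped FOS and FOS overlapped FOSL2, so the order of FOSL1, FOS and FOSL2 is not resolved. IER3 thus stood first in miR libraries and at rank 5 in vehicle libraries.

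The make-up of both families differed between the groups. JUND made up 53.3% ± 3.82 of the summed JUN family level per kb in miR libraries, against 81.0% ± 2.12 in vehicle libraries (SD, n = 4 each). JUN took 28.6% ± 2.88 in miR libraries and 12.2% ± 1.93 in vehicle libraries, and JUNB 18.1% ± 1.39 and 6.81% ± 0.924. For each of the 3 genes no miR library overlapped a vehicle library. In the FOS family FOSL2 took 46.6% ± 3.73 in miR libraries, against 25.7% ± 6.68 in vehicle libraries, also without overlap. The shares of FOS were 23.5% ± 3.64 in miR libraries and 34.0% ± 11.0 in vehicle libraries, and those of FOSL1 25.6% ± 4.70 and 35.0% ± 8.16, both with overlap. The summed level was 151 ± 5.86 CPM per kb in miR libraries and 124 ± 12.5 in vehicle libraries for the JUN family, and 12.0 ± 1.38 and 8.55 ± 1.66 CPM per kb for the FOS family. JUN family transcripts thus outnumbered FOS family transcripts 12.7 ± 1.08-fold in miR libraries and 14.8 ± 2.20-fold in vehicle libraries. These shares are restatements of the members' levels and were not tested. Shares and ratios depend on the length used, here that of the principal transcript. Over all annotated exons FOS averaged 1.90 CPM per kb in miR libraries and 1.99 in vehicle libraries, against 2.86 and 2.98. Shares and ratios were not recomputed for that length.

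**Figure D4:**
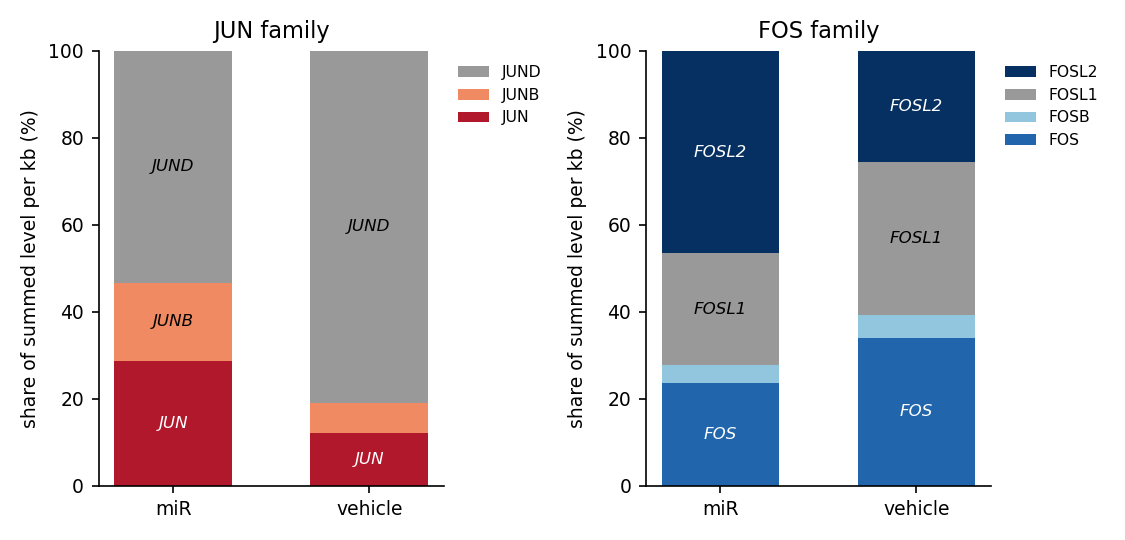
Mean share (%) of each gene in the summed level per kb of the JUN family (left) and the FOS family (right), with miR bars left of vehicle bars, 4 libraries each. The JUND part is 53.3% in miR libraries and 81.0% in vehicle libraries, and the FOSL2 part 46.6% and 25.7%.

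Promoter letters were read for the 8 members that the RefSeq table holds, over the 250 bases before and the 50 after the start (GRCh38.p14). FOSL1 and IER3 are not among them. The start is that of RefSeq, whereas the gene positions above are those of GENCODE 29. For JUN and FOSL2 the whole window lies within the gene as GENCODE places it. The FOSL2 word below lies after the start in both annotations. On both strands, the AP-1 word TGACTCA was found in FOSL2, the CRE word TGACGTCA in JUND, and CArG boxes, the SRF binding motif, in EGR1, which has 2. JUN, JUNB, FOS, FOSB and IER5 had none of these words in this window, and none of the 8 had the EGR word GCGTGGGCG. Variants of the words and bases outside the window were not searched, so sites there may be missed. Over all 27305 promoters, 4.92% held the AP-1 word, 1.98% the CRE word, 1.29% a CArG box and 0.784% the EGR word. Over the 11491 promoters of genes in the count table the shares were 3.29%, 3.04%, 1.07% and 1.29% in the same order. Among the 8 promoters read, only those of JUND, FOSL2 and EGR1 held any of these words. The matches are shown in capitals. They lie at chr19:18281815-18281822 (JUND, minus strand), chr2:28392862-28392868 (FOSL2), chr5:138465374-138465383 and chr5:138465396-138465405 (EGR1).
JUND, CRE: gccgcccccaTGACGTCAacccacaagg
FOSL2, AP-1 word: gccattgtagTGACTCAtctcgggcag
EGR1, CArG box farther from the start: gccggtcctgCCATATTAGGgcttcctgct
EGR1, CArG box nearer the start: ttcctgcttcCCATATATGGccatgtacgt

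The lists around AP-1 are described by their counts, each to be read against 33.4% called higher and 34.0% called lower over all tested genes. The lists share genes. DUSP1, which rose, is counted both among the further immediate early genes and among the MAP kinase phosphatases. ZFP36, which was not tested, is listed both among the former and among the AU-rich element binding proteins. Of 12 other bZIP genes whose proteins can pair within AP-1, 9 were tested, and 5 rose (background 33.4%), 2 fell (background 34.0%) and 2 were not called. The share called in either direction was near the background of 67.3%, and the median log2 fold change was 1.06 beside -0.00067 over all tested genes. ATF3, a stress-induced repressor that pairs with JUN, averaged 114 ± 8.86 CPM in miR libraries and 11.0 ± 1.68 CPM in vehicle libraries (SD, n = 4 each), 10.1-fold higher (adjusted p = 2.93e-33). MAFF, a small MAF protein without an activation domain, rose 7.96-fold (adjusted p = 4.79e-29) and MAFG, another, 2.08-fold. The large MAF gene, MAF, fell 6.51-fold, with 18.6 ± 3.34 CPM in miR libraries and 124 ± 5.55 CPM in vehicle libraries (adjusted p = 2.4e-31). The other fall in the list was ATF7, a call that was lost under 9 alternatives.

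Of 23 further immediate early genes, 16 were tested, of which 12 rose (background 33.4%), 2 fell (background 34.0%) and 2 were not called. The median log2 fold change was 0.48. MCL1, which encodes a short-lived anti-apoptotic protein, had 420.3 ± 47.4 CPM in miR libraries and 141 ± 7.84 CPM in vehicle libraries, 2.99-fold (adjusted p = 5.61e-28). TRIB1, a pseudokinase gene, rose 4.64-fold, GADD45B, a stress sensor that acts on JNK and p38 signalling, 3.71-fold, and DUSP1, a phosphatase of MAP kinases, 2.80-fold. The 2 that fell, named after their values were seen, were BTG2, an antiproliferative gene, 3.86-fold lower at 1.16 ± 0.796 CPM in miR libraries and 5.28 ± 0.671 CPM in vehicle libraries (adjusted p = 1.32e-05), and KLF10, a zinc finger factor, 2.13-fold lower with overlapping libraries (adjusted p = 0.00033). EGR2, EGR3, NR4A1, NR4A2, NR4A3 and ZFP36, which belong to the classical fast transcripts, were below the count minimum, with 3 to 24 counts each over all 8 libraries.

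Of 21 MAP kinase pathway genes listed, 19 were tested, and 9 rose (background 33.4%), 7 fell (background 34.0%) and 3 did not pass (median 0.05). The median and the share called lower lie near those of all tested genes. The shares called higher and called in either direction lie above their backgrounds of 33.4% and 67.3%. MAP2K1, which encodes MEK1, the kinase directly above ERK, fell 4.70-fold, with 66.1 ± 9.74 CPM in miR libraries and 312 ± 33.2 CPM in vehicle libraries (adjusted p = 8.17e-29). MAPK8, which encodes the JUN kinase JNK1, rose 1.58-fold (50.7 ± 1.65 CPM in miR libraries and 32.5 ± 3.47 CPM in vehicle libraries, adjusted p = 5.61e-07). The p38 genes MAPK12 and MAPK14 rose 1.99-fold and 1.60-fold. These are transcript levels, and kinase activity was not measured.

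MAP kinase phosphatases, many of which are themselves early genes that switch the kinases off, had 10 tested genes of 11 listed, of which 7 rose (background 33.4%) and 3 fell (background 34.0%), with a median of 0.88. DUSP16, which acts mainly on JNK and p38, had 63.0 ± 3.32 CPM in miR libraries and 12.8 ± 2.01 CPM in vehicle libraries, 4.98-fold (adjusted p = 1.02e-23). DUSP8, also of the JNK and p38 class, rose 4.15-fold, DUSP5, a nuclear ERK phosphatase, 2.86-fold, and DUSP14 2.30-fold. The 3 that fell, named after their values were seen, were DUSP2 (3.79-fold lower), DUSP7 (2.92-fold lower) and DUSP6, an ERK phosphatase, 1.26-fold lower. DUSP6 had the most counts of the list, with 1756 ± 101 CPM in miR libraries and 2205 ± 104 CPM in vehicle libraries (adjusted p = 1.73e-07). The summed CPM of the list was 1927 to 2232 in miR libraries and 2320 to 2542 in vehicle libraries, lower in miR although more of its genes rose.

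A list of SRF, its partners, CREB1 and the EGR corepressor genes NAB1 and NAB2 had 9 tested genes. Of these, 2 rose (background 33.4%), 3 fell (background 34.0%) and 4 were not called, with a median of -0.11. The background called in either direction was 67.3%. ELK1, the ternary complex factor best known at the FOS promoter, was 1.99-fold lower (8.67 ± 1.86 CPM in miR libraries and 17.1 ± 4.12 CPM in vehicle libraries, adjusted p = 1.9e-05), and its relative ELK3 was 1.41-fold lower. CREB1, which binds CRE words, rose 1.35-fold. SRF rose 1.14-fold (adjusted p = 0.0303), with overlapping libraries, a call lost with DESeq2 (0.0553) and without miR replicate 2 (0.213) or vehicle replicate 1 (0.143), 2 (0.0843) or 3 (0.0986). The EGR corepressor genes NAB1 and NAB2 had log2 fold changes of -0.29 (adjusted p = 0.0818) and 0.18 (adjusted p = 0.263) and did not pass.

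Genes of mRNA decay and of JUN turnover were read next. All 5 tested genes of the 6 listed AU-rich element binding proteins fell (background 34.0%, list median -0.43): HNRNPD, which encodes AUF1, fell 1.75-fold (adjusted p = 8.57e-20), ELAVL1, which encodes the stabilizing protein HuR, 1.58-fold, and the decay factors KHSRP and ZFP36L2 1.25-fold and 1.34-fold. The list holds both stabilizing and destabilizing proteins. Of 4 genes whose proteins serve ubiquitin ligases acting on JUN, 2 rose (background 33.4%) and none fell (background 34.0%). FBXW7 rose 1.61-fold (102 ± 3.98 CPM in miR libraries and 63.9 ± 2.00 CPM in vehicle libraries, adjusted p = 2.22e-10). RFWD2, which encodes COP1, rose 1.28-fold (adjusted p = 0.0116), lost without miR replicate 4 (0.109). ITCH had 47.6 ± 0.292 CPM in miR libraries and 47.0 ± 4.28 CPM in vehicle libraries and DET1 2.63 ± 0.849 and 2.50 ± 0.859 CPM. Neither passed.

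Genes widely described as responsive to AP-1 had 12 tested members of 23 listed, of which 8 rose (background 33.4%), 3 fell (background 34.0%) and 1 missed the threshold (median 1.65). HBEGF, a ligand of the EGF receptor, had 34.8 ± 4.85 CPM in miR libraries and 4.61 ± 0.422 CPM in vehicle libraries, 7.40-fold (adjusted p = 2.72e-21). PLAUR, the urokinase receptor, rose 3.05-fold (adjusted p = 1.86e-22). CCND1, which encodes cyclin D1, fell 1.85-fold (175 ± 6.15 CPM in miR libraries and 324 ± 33.0 CPM in vehicle libraries, adjusted p = 1.7e-18). All genes of this list have other regulators as well, and AP-1 binding was not measured. MMP1, MMP3, MMP9, MMP10, MMP13, AREG and EREG had no row under these symbols in the count table. IL6, CXCL8, LIF and F3 were below the count minimum, with 5 to 46 counts each over all 8 libraries.

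**Figure D5:**
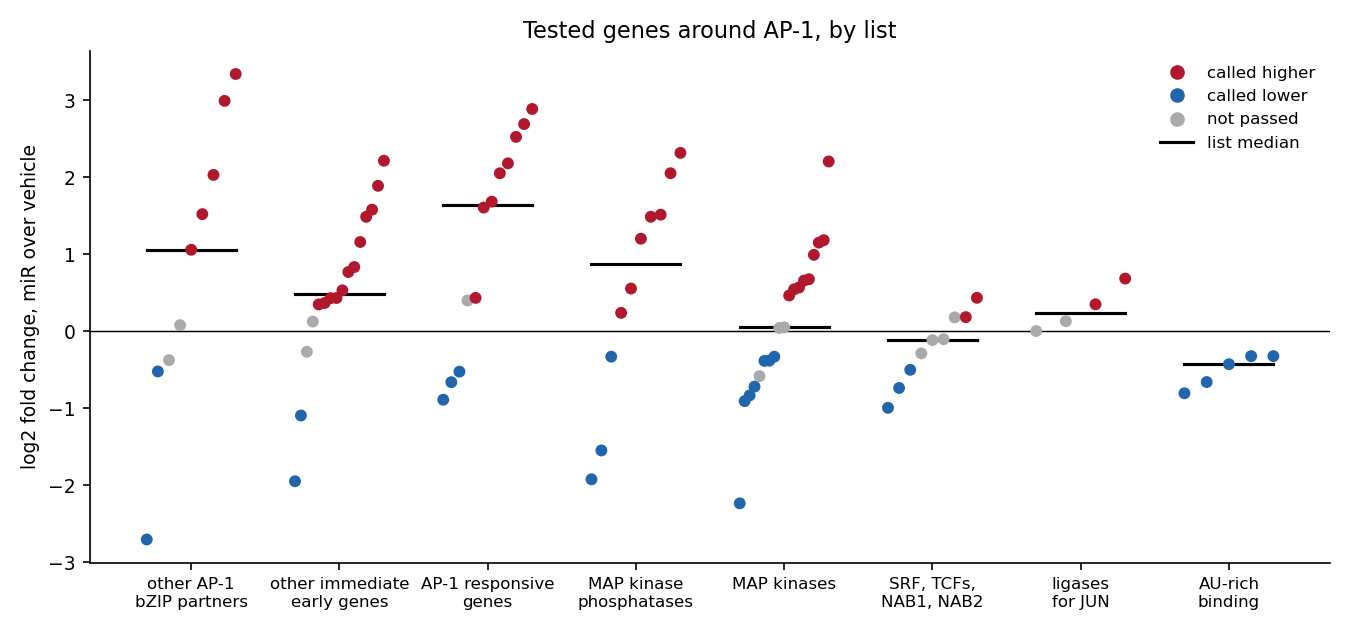
Log2 fold change, miR over vehicle, of each tested gene in 8 lists around AP-1, coloured by call, with a bar at the list median. Medians run from 1.65 for AP-1 responsive genes to -0.43 for AU-rich element binding proteins.

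The genes whose pattern was most like that of JUN over the 8 libraries, by Euclidean distance of centred log2 CPM among 10744 genes averaging at least 5 CPM, were FTL, OTUD7B and KIAA0232, at distances of 0.193, 0.205 and 0.214 beside a median of 2.27. FTL, the ferritin light chain, measured 915 ± 63.5 CPM in miR libraries and 294 ± 14.9 CPM in vehicle libraries. Those nearest to IER3 were PLEKHA2, CNN1 and ANGPT2, at 0.508, 0.542 and 0.590 beside a median of 4.55. ANGPT2, the angiopoietin 2 gene, measured 268 ± 27.3 CPM in miR libraries and 30.7 ± 6.42 CPM in vehicle libraries. The distance takes in the size of the group difference, and the log2 fold changes of FTL (1.63) and ANGPT2 (3.08) lie near those of JUN and IER3. That of CNN1 was larger, at 3.99, with 10.3 CPM in miR libraries and a low 0.599 CPM in vehicle libraries.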

How the data were processed

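The values that the authors deposited are raw counts, whole numbers for each symbol and library. Per the labels' protocols, libraries came from a stranded mRNA kit and ran on a HiSeq4000. Without giving roles, the submitters' processing notes list GRCh38, DESeq2, HTSeq 0.5.3p3, TopHat2 2.0.13 and SAMtools 0.1.19.24. Annotation and strand setting: not given in the sources used here. Columns were matched to samples by library code. Genes passing edgeR's filterByExpr (minimum count 10, minimum total 15) numbered 12366, with 99.5% of counts. After TMM scaling the test was edgeR 4.0.16 under R 4.3.3 (robust glmQLFit, glmQLFTest, group only, two-sided). CPM uses the effective library sizes. The SE is the fold change over the root of F. Counting intervals are exact 95% Poisson intervals and cover counting error only. The distance between patterns used a prior count of 2. Replicate pairs differed beyond sampling noise (chi-square per gene 2.21 to 5.89), so each library was counted separately. The largest values were those of vehicle replicate 4 with vehicle replicates 1, 2 and 3 (3.79, 5.89 and 3.91). Lengths, 3′ UTRs and loci come from GENCODE 29.

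Alternatives were DESeq2 1.42.0, limma-voom (limma 3.58.1), other scalings and filters, mitochondrial genes removed, a replicate block, and leaving out each library. The test was tried on simulated counts. Named genes were all members, up to 4 per list with the smallest adjusted p and a mean of at least 1 CPM, and the 3 nearest patterns to JUN and IER3; genes outside this rule were named after their values were seen, and 1 gene within it is not reported. The members and lists were chosen with earlier results of these data known.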

Additional observations from a re-analysis of the deposited data

Results flagged for a closer look

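Of 104 combinations of a named gene and a group, 5 had a library far from the other 3 of its group, where chance flags about 1 in 20. FOSL2 in miR replicate 4 was at 44.7 CPM, with the next at 35.1 CPM. HBEGF in miR replicate 3 was at 42.0 CPM, next to 33.2 CPM, and RFWD2 in miR replicate 4 at 50.9 CPM, next to 36.8 CPM. ZFP36L2 in vehicle replicate 2 was at 168 CPM, next to 144 CPM, and FTL in vehicle replicate 4 at 317 CPM, next to 289 CPM. No cause was tested.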

How the results depend on the processing

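Depth limits FOS, FOSB and FOSL1, which had 59 to 196 counts each over all 8 libraries. The counts of members called stayed within 1.5 times the reported ones under all alternatives. Leaving out 1 library gave 5 to 6 higher and 1 lower, and EGR1 was the 6th, also with limma-voom. The 5 members whose libraries do not overlap were recounted only with upper-quartile scaling and with library size alone. That count stayed within 1.5 times there. Calls over all genes ran from 3942 to 4142 higher and from 4004 to 4173 lower without 1 library. With library size alone 58.6% of calls were higher, against 49.6%.

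Estimates near 0 changed sign. FOS was 0.0020 with DESeq2 size factors, 0.13 with library size alone, 0.090 with limma-voom, 0.0087 with no filter, 0.042 with upper-quartile scaling and -0.25 to 0.19 without 1 library. Leaving out 1 library, FOSL1 ran from -0.082 (without vehicle replicate 2) to 0.23, DET1 from -0.10 (without vehicle replicate 2) to 0.30, and ITCH from -0.049 (without vehicle replicate 1) to 0.033. None of these passed, and the cause was not tested.

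Same-numbered miR and vehicle libraries deviated together only weakly (correlations 0.01 to 0.06), and 7 of the 8 correlated best with their own number. With replicate number as a block, 5 members were called higher and 1 lower, with 4102 higher and 4171 lower calls over all genes. Counts per list were recomputed after the data were seen: 16 of 408 moved by over 1.5 times, all of them between 0, 1 and 2 genes.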
